A study of Homo sapiens with 6 samples.

Results

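The RB and E2F families were described here through the 18 probe sets of the HG-U133A array that were annotated to a single gene, where that gene was 1 of 10: the pocket proteins RB1, RBL1 and RBL2, the E2F factors E2F1, E2F3, E2F4, E2F5 and E2F8, and the dimerization partners TFDP1 and TFDP2. The array holds 22283 probe sets in all, which name 11963 genes where a probe set was annotated to 1 gene. HL60, an established human promyelocytic leukemia cell line, was grown for 5 days with tretinoin at 1 μM or with the solvent DMSO alone, which was at 0.1% in both conditions. Tretinoin is all-trans retinoic acid, a ligand of the retinoic acid receptors. Labeled cRNA was hybridized to 3 arrays per condition, named tretinoin and DMSO replicates 1 to 3. Within a condition the arrays carried the same pool of labeled cRNA, hybridized in parallel, so every p-value below measures the spread between hybridizations of 1 pool and not that between cultures.

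Pocket proteins bind E2F factors and hold the genes that E2F controls silent. Cyclin-dependent kinases phosphorylate the pocket proteins late in G1, E2F is released, and genes of DNA replication are switched on. E2F1 and E2F3 are known as activators, E2F4 and E2F5 as repressors that work with RBL1 (p107) and RBL2 (p130), and E2F8 as an atypical repressor that binds DNA without a partner. TFDP1 (DP1) and TFDP2 (DP2) pair with the other E2F factors and allow them to bind DNA. HL60 cells given tretinoin are known to stop dividing and to differentiate toward granulocytes.

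The deposited signals were multiplied so that each array had the mean signal of DMSO replicate 1, with factors from 0.820 to 1.36, and between 54.9% and 60.1% of probe sets then exceeded the baseline of 20 units. These units are called scaled signal below, and they compare arrays, not probe sets. For tests, values below 20 were set to 20 and taken to log2, and 13374 probe sets, those that exceeded 20 on 3 or more arrays, were fitted with limma. A probe set was called at a Benjamini-Hochberg adjusted p under 0.05 over all of these together with a fitted fold of 1.5 or more in either direction. For ACTB, whose probe sets at both transcript ends monitor RNA and labeling, the 3'/5' ratio lay between 1.38 and 1.42 in DMSO and between 1.14 and 1.17 in tretinoin. For GAPDH it lay between 1.06 and 1.19 on all 6 arrays, and the part of these differences in the results below was not tested. Of 7 listed myeloid markers, 6 had a named probe set, and all 6 exceeded 20 on every DMSO array, with a summed signal of 3400.1 to 3952 on DMSO arrays and 432 to 463 on tretinoin arrays. Most of that sum was MPO (means of 3093 and 129). The granule genes ELANE, PRTN3, CTSG and AZU1 also had lower means in tretinoin, with ELANE below 20 on every tretinoin array, while SPI1 had the higher mean there (119 and 224). Of 5 epithelial markers, EPCAM, KRT8, KRT19 and CDH1 lay below 20 on all 6 arrays and KRT18 above 20 on all 6 (means of 48.9 and 46.6), and the T cell, B cell and erythroid markers had summed signals whose ranges overlapped between the conditions. In bulk RNA, fewer cells of a type and less RNA per cell cannot be told apart.

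Genes of the E2F system are themselves known to be E2F targets, so the bases just upstream of their starts are shown first. The RefSeq promoter table (GRCh38.p14) holds 12 windows for 8 of the 10 genes, and the 250 bases before each start were searched on both strands for 4 spellings of the E2F site, TTTCCCGC, TTTGGCGC, TTTCGCGC and TTTGCCGC, which may overlap one another. They were found in windows of RBL1, E2F1, E2F3 and TFDP1, which is 4 of the 12 windows, or 33.3%, against 2.79% of all 35116 windows in the table and 4.14% of those with at least 60% G and C. Of the family windows, 5 reach that 60%, and 2 of these 5 held a spelling. In E2F1 they stood 33 to 26 and 20 to 13 bases before the start, and in RBL1 26 to 19 and 16 to 9 bases before it. In E2F3 they stood 53 to 46 bases and in TFDP1 120 to 113 bases before the start. The windows of RB1, RBL2, E2F4 and TFDP2 held none of these spellings, though that of RB1 lies at a start 172699 bases inside the gene and 2 of the 3 TFDP2 windows also lie at internal starts. The letters TTTGAA, the CHR element through which the MuvB complex binds, stood in 1 window of E2F3 and 2 of TFDP2, and in 13.3% of all windows. Both of these TFDP2 windows are the internal ones, 120918 and 120364 bases inside the gene, and the window at its outer start held none. A match is a description of the letters and not a measured binding site. The stretches with E2F spellings are printed 5′ to 3′ on the strand of the gene, with the matched letters in capitals: E2F1 at chr20:33686386-33686535 (minus strand), RBL1 at chr20:37095998-37096147 (minus strand), E2F3 at chr6:20401729-20401878 (plus strand) and TFDP1 at chr13:113584603-113584687 (plus strand, ending where an annotated transcript begins).
E2F1: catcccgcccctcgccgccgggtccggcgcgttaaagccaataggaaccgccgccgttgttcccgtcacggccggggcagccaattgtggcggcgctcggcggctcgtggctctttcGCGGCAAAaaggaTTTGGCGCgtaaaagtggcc
RBL1: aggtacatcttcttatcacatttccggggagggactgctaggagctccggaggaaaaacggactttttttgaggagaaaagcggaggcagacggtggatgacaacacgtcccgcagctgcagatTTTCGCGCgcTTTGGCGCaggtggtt
E2F3: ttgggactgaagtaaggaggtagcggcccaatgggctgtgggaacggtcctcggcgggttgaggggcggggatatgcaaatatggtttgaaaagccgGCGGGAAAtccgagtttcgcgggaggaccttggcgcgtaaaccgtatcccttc
TFDP1: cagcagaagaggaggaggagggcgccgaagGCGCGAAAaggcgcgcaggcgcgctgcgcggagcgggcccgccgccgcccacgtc

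**Figure D1:**
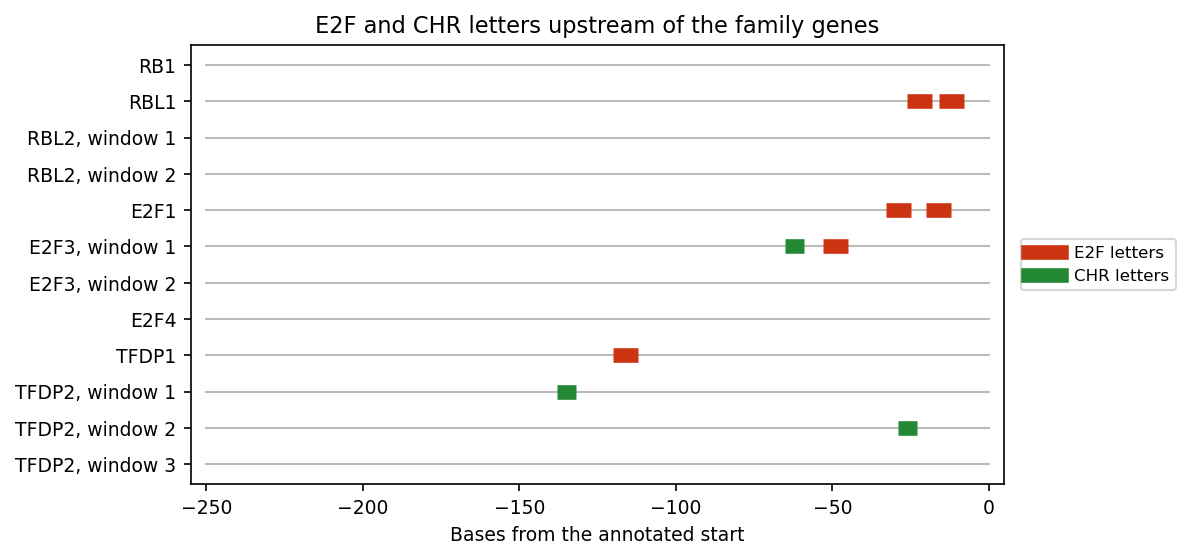
Position of the E2F spellings (red) and of the CHR letters (green) in the 250 bases before each annotated start, with the start at 0 on the right. Each gray line is 1 of the 12 windows of the family genes. In E2F1 and RBL1 a pair of E2F spellings lies within 33 bases of the start.

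Of the 18 probe sets, 13 could be tested, 2 were lower (TFDP1 212330_at and E2F1 204947_at), none was higher and 11 were not called by limma. The 2 calls are 15.4% of the 13, near the share lower in the whole array, with 27.5% called in either direction, 13.8% lower and 13.6% higher among all 13374 probe sets tested. Without scaling of the arrays, 1142 of all probe sets were called higher and 2312 lower, against 1824 and 1850 with it. At an unadjusted p under 0.05, 4 of the 13 were lower and none was higher, beside 21.8% lower and 19.9% higher among all probe sets tested. The arrays of the conditions did not overlap for 5 of the 13, each with tretinoin below DMSO, beside 24.3% of all tested probe sets with tretinoin below, 21.7% with tretinoin above and 46.0% in either direction. The median log2 fold change of the 13 was -0.36, from -0.77 to 0.37, beside -0.03 over all probe sets tested. With 1 array left out in turn, 1 or 2 family probe sets were lower, with 1 when tretinoin replicate 1 or any 1 DMSO array was left out. A further 5 probe sets were too dim to test. Since a probe set had to exceed 20 on 3 arrays, E2F1 204947_at and E2F8 219990_at entered the test through the 3 DMSO arrays alone and had to lie lower in tretinoin. Of the other 11, 1 was called lower and 3 lay below DMSO without overlap.

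**Figure D2:**
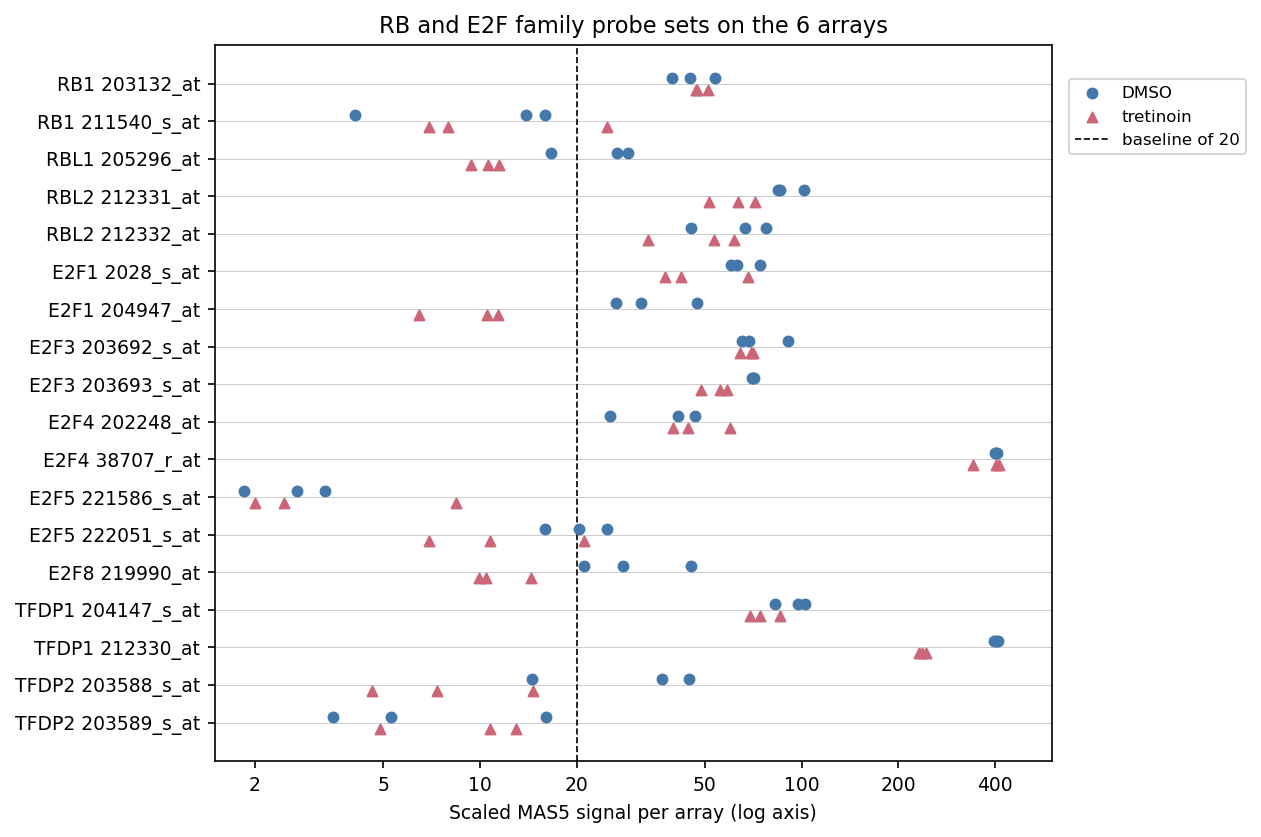
Scaled signal of each of the 18 probe sets on the 3 DMSO arrays (blue circles) and the 3 tretinoin arrays (red triangles), on a log axis, with a dashed line at the baseline of 20. The arrays of TFDP1 212330_at lie apart, between 397.5 and 408.2 in DMSO and between 231.2 and 244.1 in tretinoin. Near the baseline, 4 probe sets, 1 each of RBL1, E2F1, E2F8 and TFDP2, exceed 20 on at least 2 DMSO arrays and on no tretinoin array. The share of all probe sets with this pattern was not counted, so the 4 are not read as a trait of the families.

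TFDP1 gave the firmest change. On 212330_at, TFDP1 signal was 397.5, 408.2 and 401.0 in DMSO and 236.4, 244.1 and 231.2 in tretinoin, here and below in the order of replicates 1 to 3. The conditions lay far apart beside a spread of a few units within each. The means were 402 ± 5.44 and 237 ± 6.51 (SD, n = 3 arrays each), a 1.70-fold fall (log2 fold change -0.76 ± 0.11 SE, limma, adjusted p = 0.00234). This call held under all 18 alternative settings, with log2 fold changes from -0.97 to -0.72. The other TFDP1 probe set, 204147_s_at, gave 82.9, 97.2 and 102.4 in DMSO and 86.0, 74.2 and 69.2 in tretinoin. Its conditions overlapped, and its change of -0.30 ± 0.15 on the log2 scale was not called (adjusted p = 0.175). The log2 ratio of the first to the second probe set was 2.10 ± 0.15 in DMSO and 1.64 ± 0.16 in tretinoin (SD, n = 3), without overlap. On these arrays the probe sets of TFDP1 thus gave unequal changes, a difference that was not tested. In the same comparison of RBL2, E2F1, E2F3 and E2F4, the ranges overlapped for each gene.

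TFDP2, the other dimerization partner, lay near or below the baseline. On 203588_s_at it stood at 44.6, 36.9 and 14.5 in DMSO and at 4.6, 7.4 and 14.6 in tretinoin. DMSO replicate 3 lay with the tretinoin arrays, and with only 2 arrays above 20 the probe set was not tested. On 203589_s_at every array lay below 20, from 3.5 to 16.1 in DMSO and from 4.88 to 12.96 in tretinoin.

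E2F1, the activator most closely tied to entry into S phase, was lower on 1 of its 2 probe sets. On 204947_at the signal was 31.6, 47.4 and 26.5 in DMSO and 11.4, 10.5 and 6.5 in tretinoin. Every tretinoin array lay below the baseline and every DMSO array above it. The probe set passed the filter through the DMSO arrays alone, and its tretinoin values all became the floor, with no spread of their own. On these values E2F1 was at least 1.76-fold lower (log2 fold change -0.77 ± 0.22 SE, limma, adjusted p = 0.0336). The call was lost without any 1 of the 3 tretinoin arrays (adjusted p from 0.0712 to 0.0862), with a floor of 40 (adjusted p = 0.563) and without a filter on low values (adjusted p = 0.132), and without any 1 DMSO array the probe set could not be tested. Over all alternatives that gave a value, the adjusted p ran from 0.00306 to 0.563. On the brighter 2028_s_at, E2F1 stood at 74.2, 60.3 and 62.9 in DMSO and at 42.1, 68.3 and 37.7 in tretinoin. Tretinoin replicate 2, the array with the lowest mean signal before scaling, lay inside the DMSO range. The change of -0.46 ± 0.24 was not called (adjusted p = 0.197), and without that array it was -0.72 and was called (adjusted p = 0.0174, with a range of 0.0174 to 0.455 over the alternatives).

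E2F3, the other activator measured, did not pass. On 203693_s_at the DMSO arrays read 71.1, 69.9 and 70.8 and the tretinoin arrays 55.9, 48.8 and 58.8. The conditions did not overlap, but the change was small, at -0.38 ± 0.13 on the log2 scale (adjusted p = 0.0606, limma). On 203692_s_at the signals were 68.7, 90.5 and 65.5 in DMSO and 69.8, 64.2 and 70.6 in tretinoin. These overlapped, with a log2 fold change of -0.12 ± 0.16 (adjusted p = 0.626).

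E2F4, the main E2F of resting cells, showed no called change. On 38707_r_at it read 399.5, 403.5 and 404.8 in DMSO and 340.8, 410.4 and 403.1 in tretinoin. Its 95% interval ran from 0.771-fold to 1.18-fold, inside the minimum of 1.5-fold in both directions. On 202248_at the values were 41.3, 25.4 and 46.5 in DMSO and 39.9, 60.01 and 44.4 in tretinoin. The 2 probe sets had log2 fold changes of opposite sign, -0.07 ± 0.13 and 0.37 ± 0.27 (adjusted p = 0.735 and 0.343, limma), and the interval of the second reached 2.005-fold. The log2 ratio of E2F1 to E2F4 on their brightest probe sets changed by -0.39 ± 0.26 (SE), with DMSO values of -2.43, -2.74 and -2.69 and tretinoin values of -3.02, -2.59 and -3.42. The ranges overlapped (exact two-sided permutation test, p = 0.3, and 0.6 after adjustment over the 3 pairs compared, where 3 arrays against 3 allow no p below 0.1).

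E2F5, which also works with RBL1 and RBL2, was barely measured. On 222051_s_at it exceeded 20 on 2 DMSO arrays (24.9 and 20.3, with 15.9 on DMSO replicate 2) and on 1 tretinoin array (21.1, with 10.7 and 7.0 on the others). Its log2 fold change at the floor was -0.09 ± 0.14 (adjusted p = 0.695, limma). On 221586_s_at all 6 arrays lay between 1.8 and 8.4, below the baseline. E2F8, the atypical repressor, read 27.9, 21.0 and 45.4 in DMSO and 10.4, 9.96 and 14.5 in tretinoin. As for E2F1 204947_at, all DMSO arrays lay above 20 and all tretinoin arrays below it. Its change of -0.58 ± 0.27 at the floor of 20 was not called (adjusted p = 0.153), while with a floor of 10 it was -1.38 and was called (adjusted p = 0.0194), as it was when 16 units were added to every signal instead of flooring (-0.75, adjusted p = 0.0242). Both settings kept the filter at 20, which E2F8 passed through the DMSO arrays alone. E2F8 thus had to lie lower in tretinoin, and these calls do not test its direction. Over the alternatives that gave a value, the adjusted p of E2F8 ran from 0.0194 to 0.563.

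**Figure D3:**
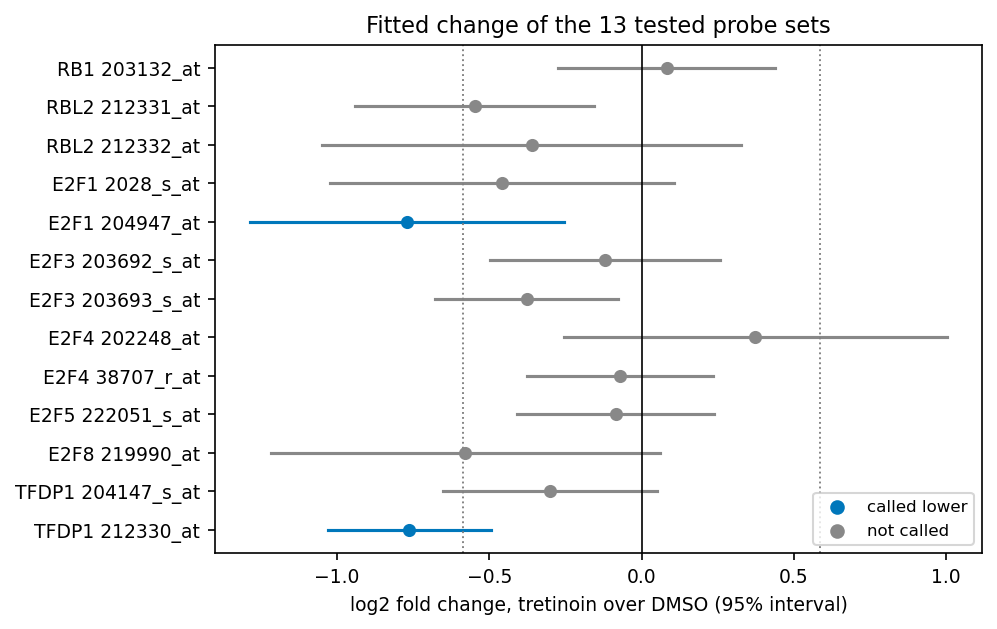
Fitted log2 fold change of tretinoin over DMSO for the 13 tested probe sets, with 95% intervals from limma (3 arrays per condition), blue where called lower and gray where not called. Dotted lines mark 1.5-fold in each direction. The intervals of RB1 203132_at, E2F4 38707_r_at, E2F3 203692_s_at and E2F5 222051_s_at stay inside them, and those of TFDP1 212330_at, E2F1 204947_at, RBL2 212331_at and E2F3 203693_s_at lie wholly below 0. E2F5 222051_s_at exceeded 20 on only 3 arrays, and its interval depends on the floor: with a floor of 10 its change was -0.61, beyond 1.5-fold.

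RB1, the retinoblastoma protein, showed no change beyond the spread of the arrays. On 203132_at RB1 read 39.7, 44.9 and 54.0 in DMSO and 47.1, 47.5 and 51.2 in tretinoin, so the tretinoin arrays lay inside the DMSO range. Its log2 fold change was 0.08 ± 0.15 (adjusted p = 0.733, limma), with a 95% interval of 0.827-fold to 1.36-fold. The sign turned without scaling (-0.12) and without DMSO replicate 1 (-0.02). On 211540_s_at RB1 exceeded 20 on tretinoin replicate 1 alone (24.9) and was not tested.

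RBL1 (p107), a pocket protein of dividing cells and a known E2F target, lay near the baseline. It read 16.6, 28.8 and 26.7 in DMSO and 10.6, 11.5 and 9.4 in tretinoin on its 1 probe set, 205296_at. Every tretinoin array lay below every DMSO array, but with only 2 arrays above 20 it was not tested. With floor and filter both lowered to 10, an alternative chosen after the values were seen, RBL1 had a log2 fold change of -1.13 ± 0.24 and was called (adjusted p = 0.0185, limma). Under that setting 4 family probe sets were called lower, those of RBL1, E2F1 (204947_at), E2F8 and TFDP1 (212330_at), of 17 tested, beside 10.9% of all 16622 probe sets tested there. Whether signals of 10 to 20 units stand above background is not given by the file, which holds no detection calls.

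RBL2 (p130), the pocket protein best known from resting cells, was not called. On 212331_at RBL2 read 85.9, 84.6 and 101.5 in DMSO and 63.5, 51.7 and 71.9 in tretinoin. The conditions did not overlap and the adjusted p was 0.0424, but the log2 fold change of -0.55 ± 0.17 was short of 1.5-fold. The adjusted p of this probe set ran from 0.0288 to 0.12 over the alternatives. On 212332_at RBL2 gave 66.8, 77.3 and 45.2 in DMSO and 61.7, 33.3 and 53.6 in tretinoin, with a change of -0.36 ± 0.29 (adjusted p = 0.405). Both had a negative log2 fold change under all 18 alternative settings, though several of these cannot move the estimate of a probe set above the floor. The changes ran from -0.75 to -0.42 for 212331_at and from -0.58 to -0.10 for 212332_at, the last without tretinoin replicate 2. The log2 ratio of RBL1 to RBL2 changed by 0.23 ± 0.21 (SE, exact permutation p = 0.4), and that of TFDP1 to TFDP2 by -0.08 ± 0.35 (exact permutation p = 1). Both rest on values set to the floor, and both signs turned with a floor of 10 (-0.58 and 0.58).

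The genes listed as classical E2F targets, mostly of DNA replication and repair, were lower almost throughout. The list was chosen with earlier results of these data known. It leaves out the family genes, themselves known as E2F targets, of whose 13 tested probe sets 11 were not called. Of 36 listed classical E2F targets, 32 had a probe set of their own and all 32 were tested. Of these, 31 were lower and none was higher (limma; at an unadjusted p under 0.05 also 31 and none), beside 14.3% lower and 13.5% higher over 8161 genes, each by its brightest probe set. Their median log2 fold change was -1.56, against -0.04 over those genes, and 9 of the 32 had at least 1 tretinoin array at the floor. Among these, CDC45, GINS2 and HELLS entered the test through the 3 DMSO arrays alone and had to lie lower in tretinoin. By fitted log2 fold change on floored values the largest falls were those of the helicase subunits MCM6 (635 ± 11.3 to 103 ± 11.5, 6.197-fold), MCM4 (5.80-fold) and MCM2 (5.34-fold), all above the floor, whereas the folds of genes at the floor are lower bounds. Only POLA2, a subunit of DNA polymerase alpha named here after its value was seen, was not called, at 40.9 ± 11.8 and 27.4 ± 6.46 (adjusted p = 0.172). The E2F spellings stood in windows of 13 of 29 of these genes that had one, beside 4 of 8 family genes and 928 of all 27305 genes. Genes differ in their number of windows. By window the share was 27.1% of 48, beside 33.3% of the family windows and 2.79% of all windows.

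Of 17 tested genes of cyclins, kinases, their inhibitors and related factors, which act on the pocket proteins, 7 were lower and 1 was higher, beside 14.3% lower and 13.5% higher over all genes. At an unadjusted p under 0.05 (limma), 7 were lower and 3 higher, beside 21.8% and 19.9% of all probe sets tested. CDK4, a kinase that phosphorylates RB1, fell 3.00-fold from 376 ± 10.6 to 125 ± 8.35 (SD, n = 3), cyclin A2 (CCNA2) fell 2.70-fold from 133.5 ± 14.0 to 49.4 ± 3.96, and cyclin E1 (CCNE1) was at least 3.17-fold lower, from 74.2 ± 24.0, with 1 tretinoin array at the floor. CDC25A, a phosphatase that activates these kinases, had a smaller fitted log2 fold change than CCNA2 (-1.40 against -1.43), but with every tretinoin array at the floor its fold of at least 2.74 is a lower bound. CDC25A also entered the test through the DMSO arrays alone and had to lie lower in tretinoin. Cyclin D3 (CCND3), a partner of CDK4, was the gene called higher, at 2.09-fold, from 261 ± 2.99 to 546 ± 39.5 (adjusted p = 0.000728, limma). The kinase inhibitor CDKN1B (p27) was not called, at 66.7 ± 12.97 and 92.8 ± 5.15 (adjusted p = 0.0617), and is named here after its value was seen. The inhibitors CDKN1C, CDKN2A and CDKN2D were not called either (adjusted p = 0.303, 0.214 and 0.942, limma). CDKN1A and CDKN2B exceeded 20 on no array and were not tested. Without DMSO replicate 3, 4 of these genes were lower and 2 higher, and without DMSO replicate 2, 2 were higher. The median log2 fold change of the 17 was -0.09.

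Of 16 tested chromatin regulators that bind RB1 or are recruited with it, 6 were lower and 1 was higher, beside the same 14.3% and 13.5% over all genes. At an unadjusted p under 0.05 (limma), 8 were lower and 3 higher, beside 21.8% and 19.9% of all probe sets tested. The histone methyltransferase EZH2 fell 3.73-fold from 111 ± 6.93 to 29.6 ± 11.1, the DNA methyltransferase DNMT1 fell 2.87-fold from 268 ± 20.5 to 93.5 ± 15.8, and SAP30, a subunit of the SIN3 repressor, fell 2.52-fold from 78.8 ± 10.3 to 31.2 ± 4.99 (SD, n = 3). KDM5A, a histone demethylase first found through its binding to RB1, rose 1.55-fold from 131 ± 2.83 to 204 ± 2.46 (adjusted p = 0.0051, limma), a call lost without scaling and with an offset of 16, and without DMSO replicate 1 the list held 2 higher genes. Of 9 listed genes of the MuvB complex and the mitotic activators, LIN9, LIN52 and LIN54 had no probe set of their own, and LIN37 and MYBL1 were not tested. That left 4 tested genes, RBBP4, MYBL2, FOXM1 and DYRK1A, so most LIN subunits were not measured. MYBL2 (B-MYB) fell 2.86-fold from 107 ± 18.8 to 37.4 ± 12.0 and RBBP4 fell 1.61-fold from 446 ± 26.5 to 277 ± 11.4. The other 2 were not called, with none higher (also none at an unadjusted p under 0.05). The median log2 fold change was -0.33 for the chromatin regulators and -0.57 for the MuvB list, beside -0.04 over all genes.

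**Figure D4:**
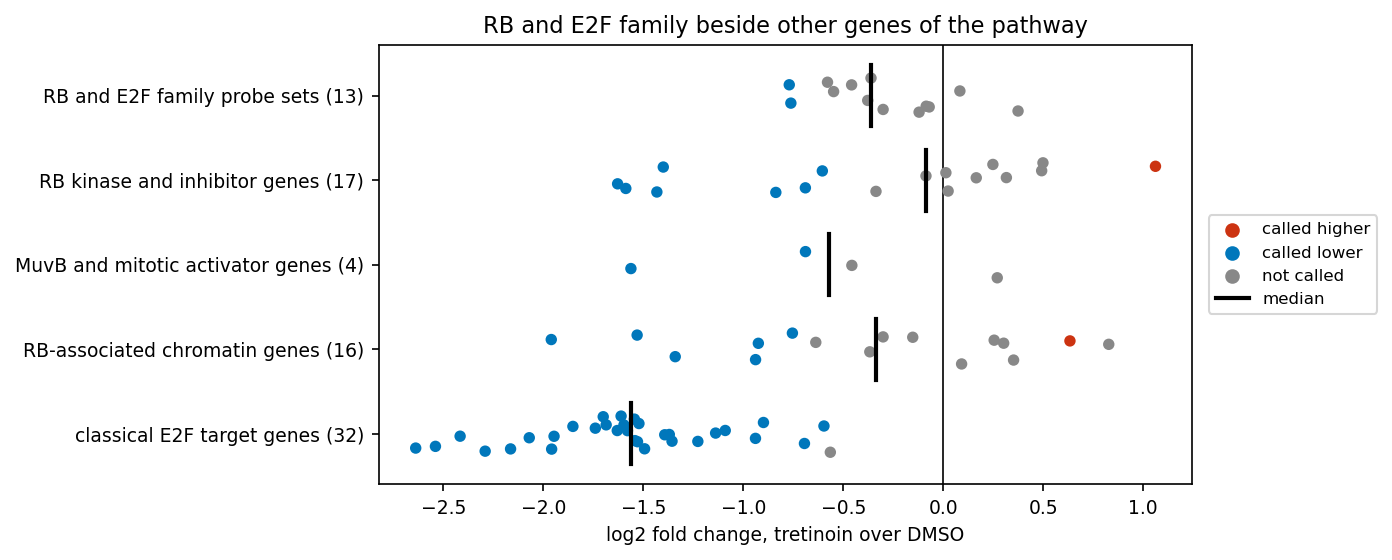
Log2 fold change of tretinoin over DMSO for the 13 tested family probe sets and, below them, for the tested genes of 4 other lists of the pathway, with the number of points in brackets. Points are blue where called lower, red where called higher and gray where not called, and black bars mark medians, -0.36 for the families and -1.56 for the classical E2F targets, all of which lie left of 0.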

How the data were processed

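Deposited values were used as they stand: the authors hybridized labeled cRNA from DMSO-treated and tretinoin-treated HL60 cells to HG-U133A arrays and deposited linear MAS5 signal intensities, 1 column per array and 6 arrays in all, before scaling between arrays. The MAS5 version is not given in the sources used here. The number of arrays limits precision. Of 22283 probe sets, 19071 were annotated to 1 gene, 1043 to several and 2169 to none, and only the first were named, with symbols updated through RefSeq.

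Arrays were scaled to the mean of DMSO replicate 1, floored at 20 and taken to log2. Probe sets above 20 on at least 3 arrays entered a linear model of the condition means in limma 3.58.1 with moderated variances (R 4.3.3), after a check on simulated data. Means and folds are of floored signals, and a fold is a lower bound where an array lay at the floor. Log2 fold changes carry the limma SE. The brightest probe set stood for each gene of a list. Members, lists and tests were chosen with earlier results of these data known. Of each list, the 3 largest called rises and falls by fitted log2 fold change were named, and every called gene where 3 or fewer were called in a direction. Alternatives were other scalings, floors and filters, an offset, a replicate block, an intensity trend, no fold minimum, other probe sets per gene and each array left out. Motifs and figures were made with Python 3.11.15, pandas 2.3.3 and matplotlib 3.10.9.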

Additional observations from a re-analysis of the deposited data

How the results depend on the processing

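No family probe set was called higher under any of the alternatives run, and none of the called changes turned in sign. For E2F1 204947_at, which passed the filter through the DMSO arrays alone, the sign could not turn wherever that filter was kept. The change of TFDP1 212330_at, which lay above every floor used, stayed at -0.76 with the other floors and filters, which cannot move it. The count of family probe sets called lower was 1 with a floor of 40, with the filter on all 6 arrays and without a filter, and 4 with floor and filter of 10, an alternative added after the data were seen, and it lay between 1 and 2 with each array left out in turn. With tretinoin replicate 2 left out, the 2 were TFDP1 212330_at and E2F1 2028_s_at, and with tretinoin replicate 3 left out, TFDP1 212330_at and RBL2 212331_at (adjusted p = 0.0409), so the genes behind the count differed. The filter itself removed E2F1 204947_at when it asked for all 6 arrays. The change of RBL1 against RBL2 was 0.23 at the floor of 20, -0.58 with a floor of 10, 0.55 with a floor of 40 and -0.13 with an offset of 16, and that of TFDP1 against TFDP2 was -0.08, 0.58, -0.71 and 0.19, and 0.26 without DMSO replicate 3 (from -0.33 to 0.26 over the arrays left out). The change of E2F1 against E2F4 kept its sign throughout. Kinase and inhibitor genes called lower numbered 4 with a floor of 40, where 1322 of all probe sets were lower. With each array left out they lay between 4 and 6, with 1 to 2 higher, beside 1521 to 1967 of all probe sets lower. When every probe set of a gene was counted, 13 probe sets of this list were lower. Chromatin genes called higher numbered 0 without scaling and with an offset of 16, and 1 to 2 with each array left out. When every probe set was counted, 2 probe sets of the chromatin list were higher and 11 lower. Classical E2F target genes called lower numbered 23 to 31, and 44 probe sets were lower when every probe set was counted. The 23 was with the filter on all 6 arrays, where 1499 of all probe sets were lower. That filter left untested the 9 target genes with a tretinoin array at the floor. Counts over every probe set are of probe sets and not of genes. The number tested for them is not given here, so they are not comparable with the counts of genes. Without scaling, 1142 probe sets of the array were higher, and the median log2 fold change of all probe sets tested moved to -0.21, where RB1 203132_at stood at -0.12. Of the uncalled changes, 3 turned in sign: RB1 203132_at was -0.02 without DMSO replicate 1, E2F3 203692_s_at was 0.02 without DMSO replicate 2 and E2F4 38707_r_at was 0.01 without tretinoin replicate 1. That of E2F5 222051_s_at was 0 with a floor of 40 and -0.61 with a floor of 10 (adjusted p = 0.23, limma). The cause of these shifts was not tested. Replicate numbers did not pair the arrays: deviations of same-numbered arrays correlated at -0.03, -0.01 and 0.07, and not every array correlated best with its own number. With a replicate block, 2 family probe sets were lower, and 1743 of all probe sets were higher and 1758 lower.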
